A study of Mus musculus with 12 samples.

Results

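The genes described here are the 7 inhibitors of cyclin-dependent kinases that make up the Cip/Kip family (Cdkn1a, Cdkn1b and Cdkn1c) and the Ink4 family (Cdkn2a, Cdkn2b, Cdkn2c and Cdkn2d). They were taken by gene symbol from a table of 24421 entries, and all 7 were found in it. RNA came from the tibialis anterior, a fast hindlimb muscle, of male mice 4 months old: 6 of the C57Bl/6 strain (WT) and 6 carrying mdx and mTR alleles (mdx/mTR). The mdx allele disrupts the dystrophin gene Dmd, and mTR denotes the gene of the telomerase RNA, Terc. The labels give neither the generation nor the zygosity of the mTR allele, and no group carries only 1 of the alleles, so their contributions cannot be told apart. The members were chosen by symbol as complete families, after the levels of this same contrast between mdx/mTR and WT were known, so their group differences describe the fit over all genes and are no independent evidence.

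Cyclin-dependent kinases drive a cell from growth into DNA synthesis by phosphorylating the retinoblastoma protein, which releases E2F transcription factors. The Ink4 proteins bind Cdk4 and Cdk6 and keep them from D-type cyclins, whereas the Cip/Kip proteins bind assembled cyclin and kinase complexes, chiefly those of Cdk2. In skeletal muscle, Cdkn1a and Cdkn1c are known for holding differentiating myoblasts out of the cell cycle, and Cdkn2a is a widely used marker of senescent and aged cells, including aged satellite cells.

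WT libraries held 36903560 to 40981012 counts, and mdx/mTR libraries 35136327 to 60330410. Levels are counts scaled to a common library size (CPM) after TMM scaling, which corrects library totals for composition, and are given as mean ± SD over the 6 mice of a group. Dmd lay at 228 to 244 CPM across WT mice but 35.2 to 56.4 CPM across mdx/mTR mice, while Terc had 2 counts in all 12 libraries together, so only the mdx allele could be checked against the labels. Together, 5 muscle fibre markers summed to 122804 to 147470 CPM (WT) and 95475 to 131571 CPM (mdx/mTR). Nothing in the labels says more about how the mice were related. The p-values set each group difference against the spread between mice within the groups. Anything else that the mice of a group shared cannot be told apart from genotype.

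Of the 7 inhibitor genes, 4 were higher in mdx/mTR (Cdkn1a, Cdkn2a, Cdkn2b and Cdkn2d), none was lower, and Cdkn1b, Cdkn1c and Cdkn2c did not pass an adjusted p of 0.05 (edgeR quasi-likelihood test, Benjamini-Hochberg adjustment over 13937 genes). By the same rule 48.3% of all tested genes were called, and 25% were called higher. The members' median log2 fold change was 0.37, against 0.01 over all tested genes. For the 4 called genes, all 6 mdx/mTR libraries lay above all 6 WT libraries, which held for 12.6% of tested genes. That share is no yardstick for genes already called. In all, 1760 genes were separated in this way and 3479 were called higher, so separation does not set these 4 apart from other called genes. In whole muscle, a larger number of cells of a type cannot be told apart from more RNA per cell. Markers of several other cell types, though not of all, moved with the groups. All 6 macrophage markers were higher, with a summed level of 37.5 to 63.0 CPM for WT and 84.9 to 274 CPM for mdx/mTR. Of 6 fibroblast and fibro-adipogenic markers 5 were higher (880 to 1586 CPM against 2195 to 4375 CPM), and of 6 satellite cell and myoblast markers 4 were higher and 1 lower (49.8 to 66.1 CPM against 61.3 to 119 CPM). All 3 tenocyte markers were higher (6.24 to 13.95 CPM against 12.03 to 17.7 CPM), as were 2 of 3 tested neutrophil markers (0.639 to 1.92 CPM against 1.78 to 17.99 CPM). Endothelial markers went the other way, with 3 of 5 lower and none higher (434 to 574 CPM against 342 to 444 CPM), and so did Schwann cell markers, with 4 of 5 lower (41.8 to 53.3 CPM against 22.3 to 34.6 CPM). Smooth muscle and pericyte markers were mixed, with 1 higher and 2 lower of 5, and so were muscle fibre markers, with 1 higher and 1 lower of 5. Of 4 adipocyte markers 1 was lower and none higher, and none of 2 tested B cell markers was called. The part of any of these cells in the inhibitor levels was not tested. Of 5 T cell markers, Cd3d, Cd3e, Cd3g and Cd8a stayed under 1 CPM in every library, and Cd4, the only one tested, was higher (0.0556 to 0.424 CPM against 1.08 to 2.81 CPM; edgeR adjusted p 4.2e-05).

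**Figure D1:**
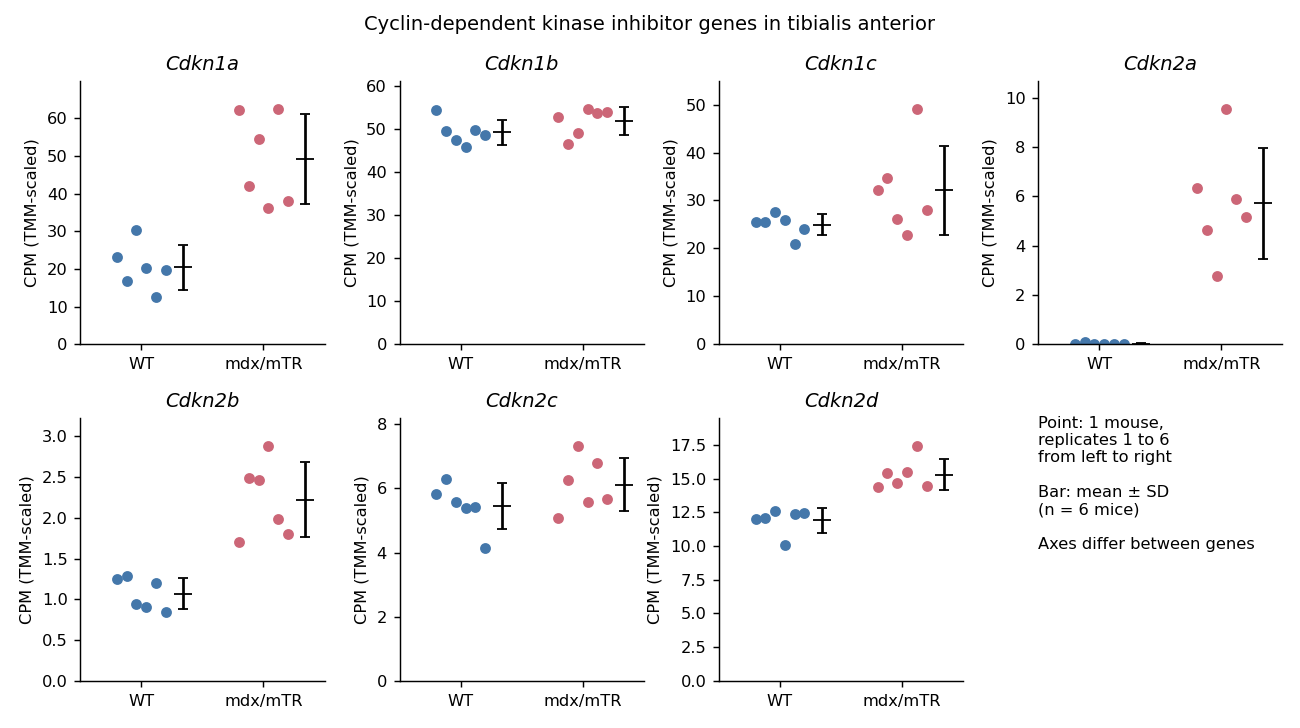
Level of each inhibitor gene in every library, in TMM-scaled CPM on axes that start at 0 and differ between genes. Points are single mice and bars are mean ± SD of 6 mice. The groups do not overlap for Cdkn1a, Cdkn2a, Cdkn2b and Cdkn2d, and Cdkn2a lies near 0 in WT.

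Cdkn2a, the founding gene of the Ink4 family, stood apart from the other members. It encodes a pair of unrelated proteins: p16Ink4a, which binds Cdk4 and Cdk6, and p19Arf, which stabilises p53 by restraining Mdm2. The gene lies at chr4:89274471-89294653 on the minus strand (GRCm38, GENCODE M21), with a start for each protein. Transcript Cdkn2a-202, the Arf form, begins with exon 1 at chr4:89294334-89294653, and Cdkn2a-201, the Ink4a form, begins with exon 1 at chr4:89281986-89282192. Both then use exon 2 at chr4:89276645-89276985. They share 575 bases, 67.5% of Cdkn2a-201 and 64.3% of Cdkn2a-202, and counts per gene symbol do not separate them. The promoters of the 2 starts are shown because either or both could be the source of the RNA counted, each from 250 bases before to 50 after the RefSeq start (GRCm38.p6, minus strand), with the GC box, a binding motif of Sp1 (GGGCGG, searched on both strands), in capitals.
Cdkn2a, Arf start, chr4:89294570-89294869: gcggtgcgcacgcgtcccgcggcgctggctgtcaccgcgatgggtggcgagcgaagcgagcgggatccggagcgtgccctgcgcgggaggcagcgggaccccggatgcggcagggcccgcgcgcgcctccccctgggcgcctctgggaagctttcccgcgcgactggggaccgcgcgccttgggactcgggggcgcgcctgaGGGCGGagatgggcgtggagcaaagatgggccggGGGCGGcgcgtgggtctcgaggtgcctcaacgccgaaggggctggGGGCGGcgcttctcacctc
Cdkn2a, Ink4a start, chr4:89282143-89282442: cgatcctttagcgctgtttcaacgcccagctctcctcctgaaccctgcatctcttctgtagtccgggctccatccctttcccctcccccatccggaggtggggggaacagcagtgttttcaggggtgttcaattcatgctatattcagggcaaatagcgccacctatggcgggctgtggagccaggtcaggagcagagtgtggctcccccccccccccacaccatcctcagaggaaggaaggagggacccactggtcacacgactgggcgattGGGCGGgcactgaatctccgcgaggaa
The Arf window is 77% G and C and holds 3 GC boxes, and the Ink4a window is 60.3% G and C and holds 1, where 35.7% of 32851 RefSeq promoter windows of 300 bases hold at least 1. A match of letters is a description of the sequence only.

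In WT muscle Cdkn2a was at or near 0. Replicates 1, 3 and 4 had no count, which allows up to 0.0796 to 0.0833 CPM (3 counts), replicates 5 and 6 had 1 count each, and replicate 2 had 3. In mdx/mTR replicates 1 to 6 it had 364, 303, 101, 467, 277 and 315 counts, or 6.34, 4.65, 2.76, 9.54, 5.90 and 5.15 CPM. Every mdx/mTR library was thus far above every WT library, although the mdx/mTR libraries themselves differed 3.46-fold. Summed over the groups, 1827 counts stood against 5, a ratio of 255 after scaling with an exact 95% interval of 109 to 786 that covers counting error only. The fitted log2 fold change was 7.81 ± 0.48 (SE; edgeR adjusted p 9.0e-08), the highest of the 13937 genes tested. It ranked first in 19 of 20 alternative fits and second without WT replicate 4. With so few WT counts the fitted value depends on the prior count of the fit, and Cdkn2a passed the filter on low counts through its mdx/mTR libraries alone. The authors' deposited table gives a smaller log2 fold change of 5.37 with a standard error of 0.31, also the highest of its 19290 values.

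Cdkn2b, which encodes p15Ink4b, an inhibitor of Cdk4 and Cdk6 known to respond to TGF-beta, is the neighbour of Cdkn2a. It lies at chr4:89306299-89311039, with 11645 bases between the genes. Its promoter is printed for comparison with those of its neighbour.
Cdkn2b, chr4:89310983-89311282: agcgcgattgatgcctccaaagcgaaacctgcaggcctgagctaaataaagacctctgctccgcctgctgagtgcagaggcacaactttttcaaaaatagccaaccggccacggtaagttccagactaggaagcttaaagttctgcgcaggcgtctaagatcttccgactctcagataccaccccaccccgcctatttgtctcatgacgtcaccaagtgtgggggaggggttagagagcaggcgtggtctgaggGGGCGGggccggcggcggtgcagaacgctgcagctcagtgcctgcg
This window holds 1 GC box, 5 bases after the start. Cdkn2b had 1.25, 1.28, 0.944, 0.902, 1.20 and 0.848 CPM in WT replicates 1 to 6. The mdx/mTR replicates had 1.71, 2.49, 2.46, 2.88, 1.98 and 1.80 CPM, so that the lowest mdx/mTR library lay above the highest WT library. The log2 fold change was 1.05 ± 0.17 (SE; edgeR adjusted p 2.3e-04), and the means were 1.07 ± 0.194 and 2.22 ± 0.461 CPM (SD, n = 6 each). Single libraries held 31 to 46 counts of it (WT) or 90 to 162 (mdx/mTR). On the other side of Cdkn2a, the methylthioadenosine phosphorylase gene Mtap rose by 0.28 ± 0.07 on the log2 scale (edgeR adjusted p 0.0060), from 20.3 ± 1.48 to 24.7 ± 2.60 CPM. Dmrta1, beyond Cdkn2b, had no count in any library. Along this stretch of chromosome 4 the fitted changes of Mtap, Cdkn2a and Cdkn2b were therefore 0.28, 7.81 and 1.05.

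Cdkn2c and Cdkn2d, for p18Ink4c and p19Ink4d, are the Ink4 members outside this cluster. Cdkn2d (chr9:21288410-21291407) had between 10.1 and 12.6 CPM in the WT mice, with a median of 12.2. The mdx/mTR replicates had 14.4, 15.5, 14.7, 15.5, 17.4 and 14.4 CPM. Its rise was small but uniform: the groups did not overlap, the coefficient of variation was 7.82% in WT and 7.48% in mdx/mTR, and the log2 fold change was 0.36 ± 0.07 (SE; edgeR adjusted p 7.8e-04). Cdkn2c (chr4:109660876-109667189) ranged over 4.16 to 6.28 CPM among WT mice, with a median of 5.51, and over 5.09 to 7.32 CPM among mdx/mTR mice, with a median of 5.97. Its groups overlapped and it did not pass the threshold (log2 fold change 0.17 ± 0.11 SE, edgeR adjusted p 0.230). Only with library totals alone as scaling, which shifts the median of all genes up by 0.16, did Cdkn2c pass (0.33, edgeR adjusted p 0.0421).

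**Figure D2:**
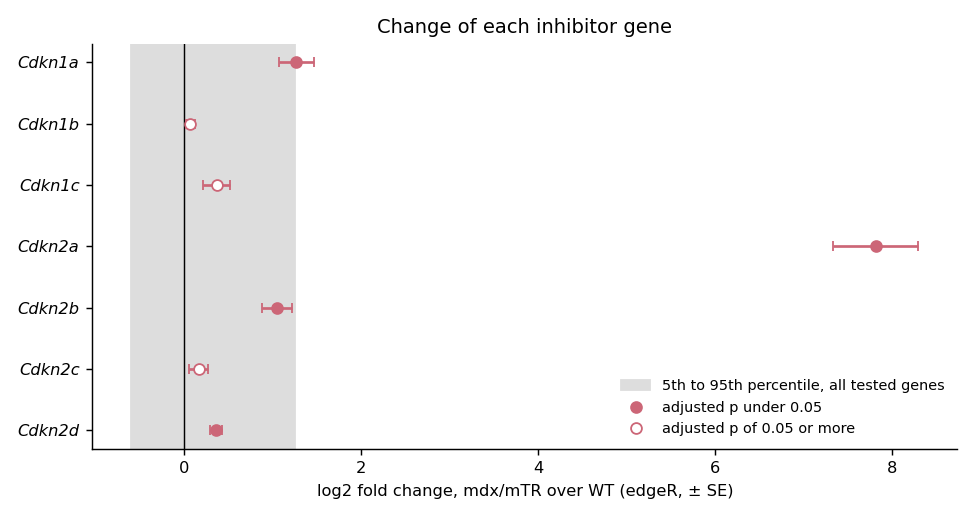
Log2 fold change of each inhibitor gene between mdx/mTR and WT (positive, higher in mdx/mTR), and bars of 1 standard error from the edgeR fit. The grey band spans the 5th to 95th percentile of all 13937 tested genes, from -0.59 to 1.25. Cdkn2a at 7.81 lies far to the right of the band and Cdkn1a at 1.27 at its edge.

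Among the Cip/Kip genes, Cdkn1a changed most. It encodes p21, the inhibitor that p53 switches on after DNA damage and that MyoD can switch on, without p53, as myoblasts leave the cell cycle. Cdkn1a had 23.2, 16.7, 30.3, 20.3, 12.5 and 19.6 CPM in WT replicates 1 to 6. In mdx/mTR the values were 62.3, 41.9, 54.6, 36.3, 62.4 and 38.1 CPM. The highest WT library, replicate 3, stayed below the lowest mdx/mTR library, replicate 4, and within WT the values differed 2.42-fold. The group means were 20.4 ± 6.02 and 49.3 ± 12 CPM, and the log2 fold change was 1.27 ± 0.20 (SE; edgeR adjusted p 1.6e-04). For scale, 7.24% of all tested genes were called at least 2-fold higher, and Cdkn1a, Cdkn2a and Cdkn2b were among them.

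Cdkn1a lies at chr17:29090976-29100727 on the plus strand and RefSeq gives it a pair of starts. Their windows are shown because the upstream one holds a p53 motif. Capitals mark the GC box, the E-box bound by MyoD (CAGCTG), and the p53 response element, searched by its consensus of a pair of adjacent 10-base repeats with the core C and G of each kept and at most 1 mismatch in all.
Cdkn1a, upstream start, chr17:29090729-29091028: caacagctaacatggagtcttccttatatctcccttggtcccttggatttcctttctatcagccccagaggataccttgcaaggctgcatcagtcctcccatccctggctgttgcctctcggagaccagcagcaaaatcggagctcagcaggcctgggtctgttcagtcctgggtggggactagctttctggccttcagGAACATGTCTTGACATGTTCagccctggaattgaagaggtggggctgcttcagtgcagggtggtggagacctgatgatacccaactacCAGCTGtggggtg
Cdkn1a, downstream start, chr17:29093519-29093818: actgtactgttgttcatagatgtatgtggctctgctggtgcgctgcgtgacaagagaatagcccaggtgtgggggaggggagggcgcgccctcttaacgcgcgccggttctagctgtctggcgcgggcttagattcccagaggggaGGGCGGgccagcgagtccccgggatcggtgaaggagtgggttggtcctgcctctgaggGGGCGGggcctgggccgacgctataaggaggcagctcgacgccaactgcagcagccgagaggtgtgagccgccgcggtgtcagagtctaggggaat
The p53 motif reads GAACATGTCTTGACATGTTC, begins 51 bases before the upstream start and departs from the consensus at 1 base. Only 22 of the 32851 promoter windows, or 0.067%, hold such a match. The same window has an E-box 38 bases after the start, a motif in 16.3% of windows, and the downstream window has 2 GC boxes. No TATAAA was found in any of the 9 windows of the 6 members that the RefSeq table covers, and counts per gene do not tell which start was used. Cdkn1c is named without a promoter.

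Cdkn1b and Cdkn1c, the other Cip/Kip genes, behaved differently from each other. Cdkn1b (chr6:134920401-134925513) encodes p27, which holds quiescent cells, satellite cells included, out of the cycle and is controlled largely at the protein level. Its level was the steadiest of the family, 45.7 to 54.4 CPM among WT mice and 46.3 to 54.5 CPM among mdx/mTR mice, with medians of 49.0 and 53.2. These ranges overlapped almost fully, and the log2 fold change was 0.07 ± 0.05 (SE; edgeR adjusted p 0.283). It was 0.23 with library totals alone (adjusted p 0.0052), a shift close to that of all genes under this scaling.

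Cdkn1c (chr7:143458339-143461050) encodes p57 and is an imprinted gene expressed from the maternal copy. WT libraries were close together, between 21 and 27.6 CPM with a median of 25.5. In mdx/mTR they spread to 32.2, 34.8, 26.1, 22.9, 49.1 and 27.9 CPM. Thus 4 of 6 lay above the highest WT library, replicate 5 by far, and replicates 3 and 4 lay inside the WT range. The log2 fold change of 0.37 ± 0.15 (SE) fell just short of the threshold (edgeR adjusted p 0.0548). Cdkn1c passed with DESeq2 (adjusted p 0.0370), with upper quartile scaling (0.0364), with scaling to library totals only (0.0192), and when mdx/mTR replicate 3 (0.0387), 4 (0.0174) or 6 (0.0452) was left out. Without mdx/mTR replicate 5 its log2 fold change was 0.21, and over the 20 alternatives the adjusted p lay between 0.0174 and 0.115. In the authors' deposited table it also passes, with a log2 fold change of 0.34 and an adjusted p of 0.0382. That table calls 5 of the 7 members, where it calls 50.1% of its 14028 genes with an adjusted p. The authors' deposited table and the fit here differ on no other member.

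Levels were compared between members per kilobase of the longest coding transcript in GENCODE M21. In WT the order was Cdkn1c (13.1 ± 1.18 CPM per kb), Cdkn1b (10.8 ± 0.640), Cdkn1a (9.83 ± 2.89), Cdkn2d (8.38 ± 0.655), Cdkn2c (2.20 ± 0.288), Cdkn2b (0.771 ± 0.140) and Cdkn2a (0.0256 ± 0.0364; SD, n = 6 each). Each of the first 4 overlapped its neighbour in this order over the 6 mice, and the last 3 were separate from each other and from the rest. In mdx/mTR the order was Cdkn1a (23.7 ± 5.77 CPM per kb), Cdkn1c (16.9 ± 4.90), Cdkn1b (11.4 ± 0.719), Cdkn2d (10.8 ± 0.805), Cdkn2a (6.40 ± 2.51), Cdkn2c (2.48 ± 0.337) and Cdkn2b (1.596 ± 0.331). Cdkn1a moved from the third place to the first, and Cdkn2a from the last to the fifth, above Cdkn2c and Cdkn2b in every mdx/mTR library. Neighbours in that order overlapped, except for Cdkn1c with Cdkn1b and Cdkn2a with Cdkn2c.

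**Figure D3:**
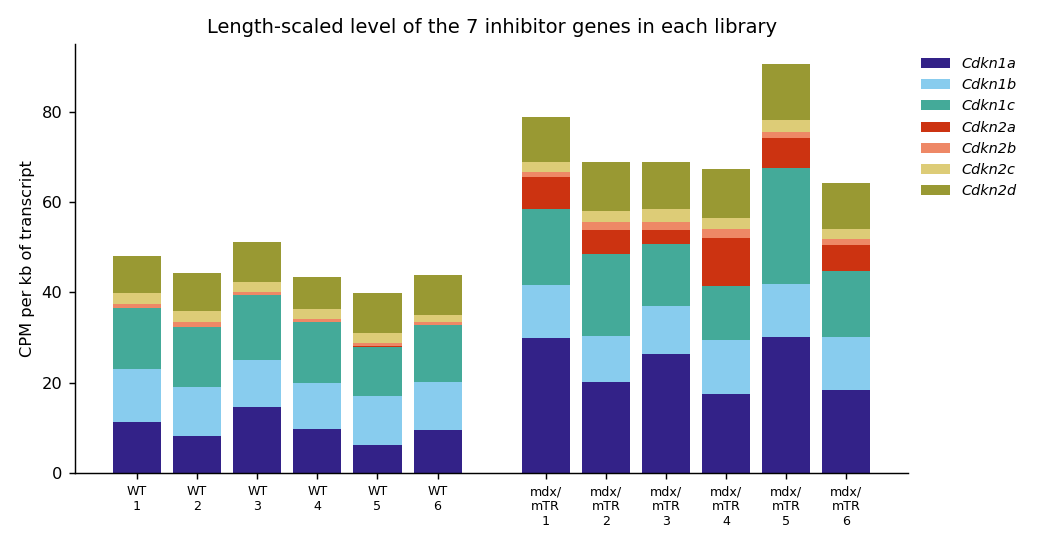
Length-scaled level of the 7 inhibitor genes in each library, stacked, in CPM per kilobase of transcript. The stacks reach 39.8 to 51.3 in WT and 64.3 to 90.6 in mdx/mTR, where the Cdkn1a and Cdkn2a layers are thicker.

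Summed over the 7 genes, the length-scaled level was 45.1 ± 4.02 CPM per kb in WT and 73.2 ± 9.86 in mdx/mTR. Cdkn1a made up 21.5% ± 4.54 of that sum in WT and 32.1% ± 5.12 in mdx/mTR. Cdkn2a made up 0.0590% ± 0.0823 and 8.84% ± 3.802, with 4.48% to 15.8% in single mdx/mTR mice. The share of Cdkn1b went from 24.1% ± 2.31 to 15.7% ± 2.03 although its own level differed by less than the spread between mice. By the GENCODE M21 annotation, 0% of the 50-base stretches of each member's longest coding transcript recur in transcripts of other genes, read in the same direction. For Cdkn2a that transcript is Cdkn2a-202, so the first exon of Cdkn2a-201 was not searched.

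Within the mdx/mTR group the members did not follow a common order of mice. Replicate 4 was highest for Cdkn2a (167% of the mdx/mTR mean) and Cdkn2b (130%) and lowest for Cdkn1a (73.6%) and Cdkn1c (71.1%). Replicate 5 was highest for Cdkn1a (127%), Cdkn1c (153%) and Cdkn2d (114%), and there Cdkn2a was at 103%. Replicate 3 had the lowest Cdkn2a (48.2%), together with a Cdkn1a of 111% and the highest Cdkn2c (120%). The coefficient of variation over the 6 mdx/mTR mice was 39.3% for Cdkn2a, 29.0% for Cdkn1c, 24.4% for Cdkn1a and 6.33% for Cdkn1b.

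**Figure D4:**
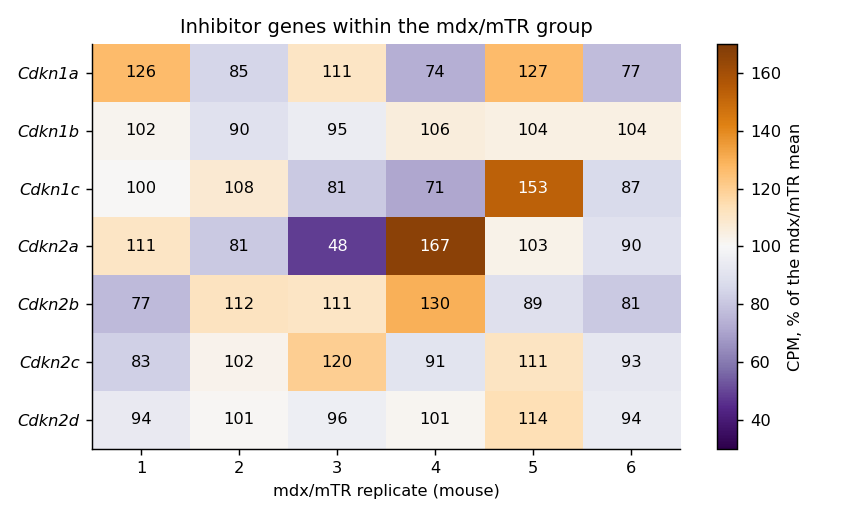
Level of each inhibitor gene in the 6 mdx/mTR mice as a percentage of its mean in that group (CPM). Replicate 4 combines the highest Cdkn2a and Cdkn2b with the lowest Cdkn1a and Cdkn1c.

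To ask whether an inhibitor varied with other cell populations among the mdx/mTR mice, each member was compared over these 6 mice with scores for S phase and mitosis, macrophages, and satellite cells and myoblasts, each the mean log2(CPM + 0.5) of a list. Of 21 relations, 2 had an exact two-sided permutation p under 0.05 for Pearson's r and none passed adjustment over the 21. The closest relation was that of Cdkn2d with the satellite cell and myoblast score (r 0.936, exact permutation p 0.0083, adjusted p 0.175; Spearman rho 0.886, exact permutation p 0.0333, adjusted p 0.613). Without the 2 mice farthest from the median score r was 0.802. Against the macrophage score Cdkn2d had an r of 0.904 (exact permutation p 0.0194, adjusted p 0.204; rho 0.829, exact permutation p 0.0583, adjusted p 0.613), and 0.395 without the 2 farthest mice, so that relation rests on them. For Cdkn2a r was -0.395 with S phase and mitosis, -0.188 with macrophages and 0.0940 with satellite cells and myoblasts (exact permutation p 0.439, 0.721 and 0.888, each adjusted p 0.763 or more; rho -0.371, -0.371 and 0.0286, exact permutation p 0.497, 0.497 and 1, adjusted p 0.623 or more). Without the 2 farthest mice these were -0.506, -0.551 and -0.0188. The smallest p that 6 mice allow is 0.00278, so no single relation could pass adjustment over 21, however tight, and the absence of a call says nothing about these relations.

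The kinases and cyclins that the inhibitors act on were examined as a list of 8 genes, of which 4 were higher and none lower (median log2 fold change 0.35). Over all tested genes 48.3% were called, 25% higher and 23.4% lower. Here and in the lists below, counts near these shares are no trait of a list. Cdk6, a target of all Ink4 proteins, rose most, by 2.19 ± 0.22 on the log2 scale (SE; edgeR adjusted p 6.9e-06), between means of 0.451 ± 0.136 and 2.06 ± 0.488 CPM. Its partner kinase Cdk4 rose slightly (0.28 ± 0.08, adjusted p 0.0144) and was at a higher level, 20.5 ± 1.28 and 24.9 ± 3.57 CPM. Cdk2, the main target of p21 and p27, had 5.22 ± 0.554 and 6.70 ± 1.62 CPM (0.36, adjusted p 0.0544). Of the D-type cyclins, Ccnd3, the one that accumulates as myoblasts differentiate, rose (0.35 ± 0.09, adjusted p 0.0046), whereas Ccnd1 (0.40, adjusted p 0.345) and Ccnd2 (-0.20, adjusted p 0.335) did not pass. The last of the 4 was Ccne1, the cyclin E1 gene (1.14, adjusted p 0.0178).

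**Figure D5:**
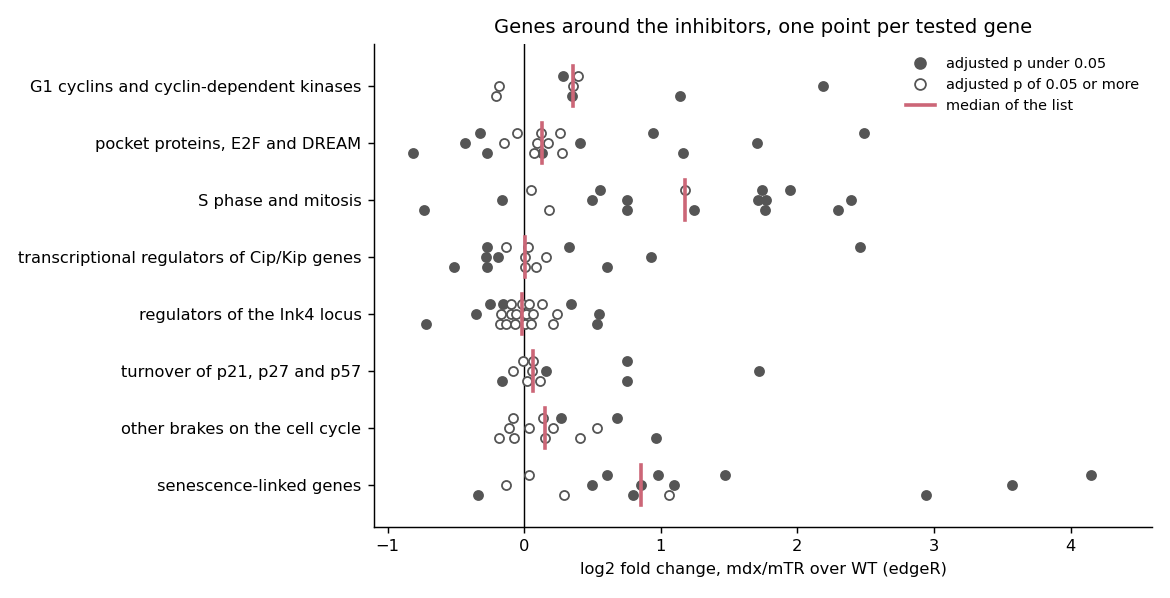
Log2 fold change between mdx/mTR and WT for every tested gene in 8 lists around the inhibitors. Filled points have an edgeR adjusted p under 0.05 and the bar is the median of a list. The lists of S phase and mitosis (median 1.18) and of senescence-linked genes (0.85) lie to the right, and the regulators of the Ink4 locus lie around 0 (-0.02).

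Downstream of the kinases, 6 of 18 pocket protein, E2F and DREAM genes were higher and 4 lower, with a median of 0.13. Library totals as scaling gave 12 higher and 2 lower, where 5596 of all 13937 tested genes were higher and 1560 lower. In the main fit, 25% of all tested genes were higher and 23.4% lower. The activator E2f2 rose from 4.79 ± 1.15 to 15.6 ± 1.84 CPM (1.70 ± 0.14 SE, edgeR adjusted p 9.5e-07). E2f8, an E2F target that represses the others, rose by 2.49 (adjusted p 8.2e-04) at low levels. Its groups overlapped, with 0.0833 to 0.614 CPM (WT) and 0.425 to 2.19 CPM (mdx/mTR). The histone-binding Rbbp4 rose by 0.41. The falls included E2f6 (-0.82), E2f3 (-0.44) and E2f4 (-0.32), and the retinoblastoma gene Rb1 itself rose by 0.13 (adjusted p 0.0343). Of 17 tested genes for S phase and mitosis 12 were higher and 2 lower (median 1.18). Without mdx/mTR replicate 2 these were 8 higher and 2 lower, with a median of 0.68. Rrm2, a subunit of ribonucleotide reductase, rose from 1.17 ± 0.416 to 6.13 ± 1.23 CPM (2.39, adjusted p 1.9e-06). The replication helicase genes Mcm4 (0.55) and Mcm3 (0.49) also rose, while Aurka fell (-0.73, adjusted p 4.3e-05). Mcm2 was lower only just past the threshold (-0.17, adjusted p 0.0487). With limma-voom or a replicate block the list had 1 lower gene in place of 2. Within this list the groups did not overlap for Rrm2, Mcm3, Mcm4 and Aurka, and they overlapped for its other tested genes. Over all tested genes 25.2% did not overlap in either direction, so such separation is no trait of this list.

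Regulators upstream of the inhibitors moved in both directions. Among transcriptional regulators of the Cip/Kip genes, 4 of 15 tested were higher and 5 lower, with a median of 0.01 that lay between -0.11 and 0.08 when single mice were left out. Scaling to library totals gave 6 higher and 2 lower, where 5596 of all 13937 tested genes were higher and 1560 lower. In the main fit, 25% of all tested genes were higher and 23.4% lower. The myogenic factors that activate Cdkn1a rose, Myog from 2.87 ± 0.561 to 15.8 ± 7.28 CPM (2.46 ± 0.28 SE, edgeR adjusted p 1.7e-05) and Myod1 from 19.5 ± 4.66 to 37.0 ± 5.57 CPM (0.93, adjusted p 1.8e-04). Both also belong to the satellite cell and myoblast markers. Sp1, which binds the GC box, rose by 0.33. Trp53, the gene of p53, had 13.4 ± 1.09 and 14.9 ± 2.83 CPM (0.16, adjusted p 0.263), and the p53 target and antagonist Mdm2 fell by 0.27 on the log2 scale (adjusted p 0.0017). Zbtb17, the gene of Miz1, an activator of Cdkn1a and Cdkn2b, fell by 0.52, and the TGF-beta signal transducer Smad4 fell by 0.28.

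For the Ink4 locus, whose silencing by Polycomb complexes is well known, 3 of 23 tested regulators were higher and 4 lower, with a median of -0.02. The called share was below the 48.3% of all tested genes. The Polycomb genes Phc1 (-0.72 ± 0.12 SE, edgeR adjusted p 2.5e-04) and Bmi1 (-0.35 ± 0.09, adjusted p 0.0044) fell, the latter from 52.7 ± 6.32 to 41.2 ± 4.46 CPM. So did the demethylase gene Kdm2b (-0.25). In the other direction, Ezh2, the Polycomb methyltransferase of dividing cells, rose from 4.34 ± 0.286 to 6.27 ± 0.332 CPM (0.53 ± 0.07, adjusted p 5.5e-05). Phc2 rose as well (0.34). Cbx2 passed narrowly (0.55, adjusted p 0.0473), with overlapping groups at 0.944 to 1.94 CPM (WT) and 1.505 to 2.79 CPM (mdx/mTR). The median of the list lay between -0.06 and 0.01 when single mice were left out. With library totals as scaling 8 were higher and 2 lower, where 5596 of all 13937 tested genes were higher and 1560 lower. Hmga2, the member of this list too low to be tested, had 0 to 0.0555 CPM among WT mice and 0.105 to 1.36 CPM among mdx/mTR mice.

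Genes for the turnover of p21, p27 and p57 proteins were higher in 4 of 11 cases and lower in 1 (median 0.06). Of all tested genes 48.3% were called in either direction. Higher were Cks1b (0.75 ± 0.15 SE, edgeR adjusted p 9.2e-04), the cofactor of the Skp2 ligase, Dtl (1.72), the adaptor that targets p21 in S phase, Cul4b (0.16) and Skp2 itself (0.76, adjusted p 0.0227). Dtl was low, with means of 0.210 CPM (WT) and 0.695 CPM (mdx/mTR), and its groups overlapped (adjusted p 0.0192). Ubac1, part of a ligase for p27, fell (-0.16). The count of 5 was 3 without WT replicate 3, mdx/mTR replicate 2 or mdx/mTR replicate 5. With library totals alone it was 9, all higher. That scaling called 5596 of all 13937 tested genes higher and 1560 lower. Of 13 tested genes for other brakes on the cell cycle 3 were higher and none lower (median 0.15): the stress-induced Gadd45a from 19.8 ± 2.98 to 38.5 ± 7.04 CPM (0.96, adjusted p 3.9e-05), the antiproliferative Btg1 (0.68) and Cdk2ap2 (0.27). The median was 0.02 without mdx/mTR replicate 1, 0.25 without mdx/mTR replicate 2 and 0.10 without WT replicate 2. Cdkn3, whose symbol resembles those of the members but which encodes a phosphatase, had means of 0.150 CPM (WT) and 0.235 CPM (mdx/mTR) and was not tested.

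Genes often used beside Cdkn1a and Cdkn2a to mark senescent cells were higher in 10 of 15 tested cases and lower in 1, with a median of 0.85. Over all tested genes 25% were higher and 23.4% lower. Without mdx/mTR replicate 5 the median of the list was 0.52, with 8 higher and 1 lower. The matrix proteases Mmp12 (4.15 ± 0.46 SE, edgeR adjusted p 1.3e-05) and Mmp3 (3.57) and the growth factor binding protein gene Igfbp3 (0.85) had the smallest p-values, and Serpine2 fell (-0.34). Mmp12 is also a macrophage gene, and macrophage markers were higher in the same libraries, as given above. Lmnb1, whose loss accompanies senescence, had means of 8.50 ± 1.65 CPM (WT) and 10.4 ± 1.65 CPM (mdx/mTR; 0.29, adjusted p 0.0820). Hmgb1 and Hmgb2, whose loss is likewise tied to senescence, changed by -0.14 (edgeR adjusted p 0.119) and 0.61 (edgeR adjusted p 0.0269). Hmgb2 is thus among the 10 higher genes. The count and median of the list pool genes tied to senescence in either direction, so they are no measure of senescence. The interleukin gene Il6, with means of 0.0996 CPM (WT) and 0.0753 CPM (mdx/mTR), was too low to be tested.

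The genes whose profile over the 12 libraries was most like that of a member were found by the root mean square difference of log2(CPM + 0.5), each gene taken relative to its WT mean. For Cdkn2a these were Ankrd1 (difference 0.43), a stretch-induced muscle gene that rose from 15.2 ± 3.24 to 144 ± 34.4 CPM, then Prune2 (0.53) and the MyoD family inhibitor gene Mdfi (0.59). On this scale the added 0.5 damps the rise of Cdkn2a, which is why genes of smaller fitted change match it. Nearest to Cdkn1a were Baiap2l1 (0.33), Igsf9b (0.34) and Tnfrsf23 (0.34), and nearest to Cdkn2b were Ddr1 (0.16), Ninj1 (0.17) and Kif5a (0.18). For Cdkn2d they were Mcu (0.06), AI837181 (0.07) and Poldip3 (0.07). Among the genes that did not pass, Cdkn1b was most like Mcmbp (0.04), Gltscr1l (0.05) and Pgs1 (0.05), Cdkn1c most like Plxnb1 (0.12), Tpm3 (0.14) and Lyn (0.15), and Cdkn2c most like Dph7 (0.09), Fli1 (0.10) and Sgsh (0.10).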

How the data were processed

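The authors deposited whole-number counts per gene symbol with 1 column per mouse. FastQC, STAR, DESeq2 and the build mm10 are named in the submitters' processing notes, with no versions. The counter, annotation and strand setting are not given in the sources used here. A second table that the authors deposited has results of their test: a mean normalised signal per gene, a log2 fold change and its error, a score (the test statistic), and raw and adjusted p-values, all named per the file headers. The table has 24421 entries, 5131 without any count, 27 with a symbol turned into a date, and 0 unmatched sample columns.

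Counts were tested with edgeR 4.0.16 in R 4.3.3: filterByExpr (13937 genes, 99.97% of counts, all 7 members), TMM, group as the only term, glmQLFit and glmQLFTest, Benjamini-Hochberg adjustment and a threshold of 0.05. The standard error is the log2 fold change divided by the square root of F. The procedure was also run on simulated counts, with a common spread for all genes and far fewer changed genes than were called here. That setting differs from these data, so the run does not bear on the calls given here. Replicates of a group differed by more than sampling noise (chi-square per degree of freedom 9.29 to 122 over 30 pairs). A count of 3 corresponds to 0.0460 to 0.0837 CPM. Reads carry no molecular identifiers, so intervals and such limits cover counting error only.

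Loci, transcript lengths and shared 50-base stretches came from GENCODE M21 (GRCm38, the assembly of mm10) and promoters from RefSeq (GRCm38.p6; 6 of 7 members matched). Relations within mdx/mTR used exact permutation tests in numpy 2.4.6 with Python 3.11.15, where 6 mice allow a smallest p of 0.00278. Named were the 7 members, their direct partners, up to 3 called genes per direction with the smallest p-value of each of 8 lists, and the 3 most similar genes with a mean of at least 1 CPM. Trp53, Ccne1, Skp2, Lmnb1, Hmgb1, Hmgb2, Il6, Cdkn3, Hmga2, Mtap and Dmrta1 were named after their values were seen, as were the motifs searched. Members and lists were chosen with earlier results of these data known. Alternatives were other filters, scalings, DESeq2 1.42.0, limma-voom (limma 3.58.1), a replicate block, each mouse left out and a threshold of 0.01.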

Additional observations from a re-analysis of the deposited data

Results flagged for a closer look

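In each group of 6 mice, the gap between the highest or lowest value and its neighbour was divided by the range and set against Dixon's 95% critical value. It exceeded that value in 8 of 96 cases, where chance gives about 4.8. Among the inhibitors, Cdkn2d was high in the fifth mdx/mTR mouse (17.4 CPM, the others 14.4 to 15.5, ratio 0.638) and low in WT replicate 4 (10.1 CPM, the others up to 12.6, ratio 0.759). Cdkn2a in WT replicate 2 (0.0837 CPM against 0 to 0.0273, ratio 0.673) is a matter of 3 counts against 0 or 1. WT replicate 2 was also high for E2f8 (0.614 CPM against 0.0833 to 0.239, ratio 0.707) and low for Smad4 (68.2 CPM against 79.9 to 84.6, ratio 0.715). In mdx/mTR replicate 5, Mcm4 (10.3 CPM against 6.60 to 7.79, ratio 0.684) and Btg1 (17.5 CPM against 12.6 to 13.9, ratio 0.732) were high, and in replicate 4 Mcm2 was low (10.6 CPM, the others at least 12.4, ratio 0.746).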

How the results depend on the processing

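Cdkn1a, Cdkn2a, Cdkn2b and Cdkn2d kept their direction and stayed past the threshold in all 20 alternative fits, with log2 fold changes of 1.16 to 1.43, 7.57 to 8.72, 0.96 to 1.21 and 0.31 to 0.52. Members called were 4 or 5 in fits without 1 mouse, 5 with DESeq2, and 7 with library totals alone. That scaling raises the median of all genes by 0.16 and splits the calls 5596 higher to 1560 lower, in place of 3479 to 3257. It also gave 9 called turnover genes and 5 called other brakes. At an adjusted p of 0.01, 4621 of all 13937 tested genes were called. The called genes were then 2 of 8 for G1 cyclins and kinases and 3 of 17 for S phase and mitosis. They were 4 of 23 for regulators of the Ink4 locus and 1 of 11 for turnover. A filter of 1 CPM in 6 libraries left 11 S phase and mitosis genes to test, of which 8 were called, with a median of 0.57; without 1 mouse 10 to 16 were called. Without 1 mouse the turnover list had 3 to 5 called genes. The relations within mdx/mTR had 0 calls in every run, which the number of mice practically fixes, so this does not bear on their stability. Lengths were the same for the longest transcript and the longest coding one.

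Replicate numbers occur in both groups, but same-numbered mice deviated together (correlation over 0.1) in only 2 of 6 pairs (-0.155 to 0.354), which does not establish a pairing. A fit with a replicate block called 6420 genes, against 6736 without it, and 4 members as before.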
